A study of Mus musculus with 5 samples.

Results

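Promoters of intermediate CpG content were examined in blasts of Cebpa-mutant mouse leukemias (acute myeloid leukemia, AML), with and without the dioxygenase TET2. A promoter was taken as the window from 1000 bp before to 1000 bp after the start site of a protein-coding gene in GENCODE vM21 (GRCm38). It counted as intermediate when this window held 20 to 59 CpG dyads, a dyad being a CpG read on both strands. Of 20807 autosomal protein-coding promoters, 5488 met this limit. Of these, 5386 also had at least 20 calls in every library and 102 did not. The 5386 promoters made up 27.7% of the 19455 promoters tested on the autosomes and the X chromosome. They held a median of 35 dyads, and 324 lay in windows that overlapped another of the set and so shared calls with it. Promoters with fewer dyads (CpG-poor, 2469) or 60 or more (CpG-rich, 10849) served for comparison.

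The blasts were of C57BL/6 strain and came from bone marrow. All 5 libraries carried Cebpa-/p30, in which 1 Cebpa allele is deleted and the other yields only the short isoform p30. The comparison lay between Tet2+/+ (libraries 23 and 24) and Tet2-/- (libraries 5, 7 and 8). According to the methods of the study, floxed alleles were deleted with Mx1-Cre, an interferon-inducible Cre that poly(I)-poly(C) switches on, after transplantation into lethally irradiated recipients. Live donor-derived cells negative for CD3, B220 and Ter119 were sorted, so that the remaining non-lymphoid, non-erythroid cells entered a library whether or not all were blasts. Each library is a separate sample with its own number in the labels. Whether they trace back to separate donors is not given there, and the p-values measure only the spread between these libraries.

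CpG methylation is read here by bisulfite sequencing, in which unmethylated cytosine is read as T and methylated cytosine as C. TET2 oxidises 5-methylcytosine to 5-hydroxymethylcytosine, a step towards its removal, and bisulfite does not tell these forms apart. CpG-rich promoters are as a rule unmethylated in every tissue, whereas promoters of low and intermediate CpG content are the ones whose methylation varies between cell types. The methylation level of a region is the share of methylated calls among all its calls. In bulk DNA, a level that differs because cells of another kind are present cannot be told apart from one that differs within cells.

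Libraries averaged 2.96 to 5.19 calls per dyad. A promoter of the set had a median of 126 to 234 calls per library. Over all CpG dyads, the level was 67.3% and 62.3% in the Tet2+/+ libraries and 70.9%, 74.8% and 68.4% in the Tet2-/- libraries, so that each Tet2-/- library was above both Tet2+/+ libraries before any promoter was considered. Tet2+/+ library 24 was the lowest and Tet2-/- library 7 the highest of the 5.

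The promoters below show what these windows look like in sequence. Each line gives the 250 bases just upstream of the start site from the RefSeq GRCm38 genome, 5′ to 3′ on the strand of the gene, with each CpG in capitals. The first 3 are the promoters with the largest gains outside families of near-identical copies, the fourth had the largest loss without overlap between genotypes, and the fifth had the most calls among promoters whose genotype means averaged under 2%.

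Eid3: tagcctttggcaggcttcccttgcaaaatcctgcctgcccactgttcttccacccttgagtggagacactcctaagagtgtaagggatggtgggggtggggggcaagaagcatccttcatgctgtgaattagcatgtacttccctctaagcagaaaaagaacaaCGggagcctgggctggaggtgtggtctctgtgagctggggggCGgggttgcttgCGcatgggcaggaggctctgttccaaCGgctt
P2ry6: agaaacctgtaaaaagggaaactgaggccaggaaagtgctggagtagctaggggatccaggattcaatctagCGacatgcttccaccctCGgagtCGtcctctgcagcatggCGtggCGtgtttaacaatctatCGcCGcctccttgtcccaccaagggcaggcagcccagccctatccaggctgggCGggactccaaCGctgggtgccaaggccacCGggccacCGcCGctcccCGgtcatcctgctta
4922502D21Rik: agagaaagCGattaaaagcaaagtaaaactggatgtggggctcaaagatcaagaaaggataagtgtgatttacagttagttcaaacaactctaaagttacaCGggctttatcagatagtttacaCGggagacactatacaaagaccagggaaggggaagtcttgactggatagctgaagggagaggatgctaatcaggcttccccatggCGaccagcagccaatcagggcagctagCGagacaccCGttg
Tmem223: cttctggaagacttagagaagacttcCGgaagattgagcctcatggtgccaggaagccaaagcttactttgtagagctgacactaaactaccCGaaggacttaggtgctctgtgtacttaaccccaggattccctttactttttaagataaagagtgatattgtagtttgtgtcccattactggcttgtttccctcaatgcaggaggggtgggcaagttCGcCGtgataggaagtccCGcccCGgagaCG
Mfsd3: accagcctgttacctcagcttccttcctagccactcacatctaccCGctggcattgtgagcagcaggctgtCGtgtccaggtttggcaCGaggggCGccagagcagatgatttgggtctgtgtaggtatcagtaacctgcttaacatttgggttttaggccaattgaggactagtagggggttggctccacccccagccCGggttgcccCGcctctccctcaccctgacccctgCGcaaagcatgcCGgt

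The P2ry6 stretch (chr7:100974650-100974899, minus strand) holds 13 CpGs, most of them in its second part. P2ry6 encodes a nucleotide receptor that responds to UDP. Its 13 CpGs were methylated at 6.56% and 3.03% in the Tet2+/+ libraries (61 and 33 calls) and at 100%, 69.6% and 87.8% in the Tet2-/- libraries (102, 92 and 41 calls). The stretch was thus nearly unmethylated in one genotype and mostly methylated in the other.

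The 4922502D21Rik stretch (chr6:129331797-129332046, minus strand) holds 6 CpGs spread over its length. None of 41 and 37 calls was methylated in the Tet2+/+ libraries, which allows levels of up to 7.32% and 8.11%. In the Tet2-/- libraries the levels were 50%, 81.1% and 76.9%, the last on 13 calls.

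The Eid3 stretch (chr10:82866376-82866625, plus strand) holds only 4 CpGs, on 9 to 19 calls per library. Levels were 20% and 7.14% in Tet2+/+ and 57.9%, 61.5% and 66.7% in Tet2-/-. Eid3 encodes a member of the EID family of inhibitors of differentiation, and its start site lies within Txnrd1.

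The Tmem223 stretch (chr19:8770746-8770995, plus strand) holds 7 CpGs, and went the other way, from 43.8% and 50% to 14.3%, 19.4% and 31.0%. The Mfsd3 stretch (chr15:76701215-76701464, plus strand) holds 8 CpGs and had 0 methylated calls in every library. With 36 to 101 calls, this allows a level of up to 8.33% in the shallowest library and 2.97% in the deepest. Intervals and limits of this kind cover counting error only.

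The intermediate promoters were more methylated without TET2. The level pooled over the 5386 promoters was 42.5% and 38.2% in the Tet2+/+ libraries and 46.4%, 48.5% and 45.02% in the Tet2-/- libraries. All Tet2-/- libraries were above both Tet2+/+ libraries. The mean level was 40.3% ± 3.10 (SD, n = 2) with TET2 and 46.6% ± 1.74 (SD, n = 3) without it, or 6.29 percentage points higher, where each ± below is an SD over the same libraries. The gain was 4.10 points without library 24 and 8.48 points without library 23. The exact two-sided permutation test over the 10 assignments of 2 and 3 libraries gave p = 0.1, the smallest p this design allows, and no such test here can go below it.

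Levels spanned the whole scale. In Tet2+/+ libraries, 28.0% and 31.1% of them had a level under 20%, and 17.5% and 13.8% had one over 80%. In Tet2-/- libraries, 24.4%, 22.5% and 23.2% were under 20%, and 26.6%, 35.6% and 24.2% were over 80%. Between 20 and 80% lay 54.5% and 55.05% of them in Tet2+/+ and 48.997%, 41.8% and 52.5% in Tet2-/-. The share over 80% was higher in each Tet2-/- library than in both Tet2+/+ libraries, and the share under 20% lower. The median promoter stood at 46.6% and 41.5% in Tet2+/+ and at 56.0%, 60.9% and 55.4% in Tet2-/-. By comparison, 78.8% to 88.9% of CpG-rich promoters and 2.75% to 4.98% of CpG-poor promoters were under 20%.

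**Figure D1:**
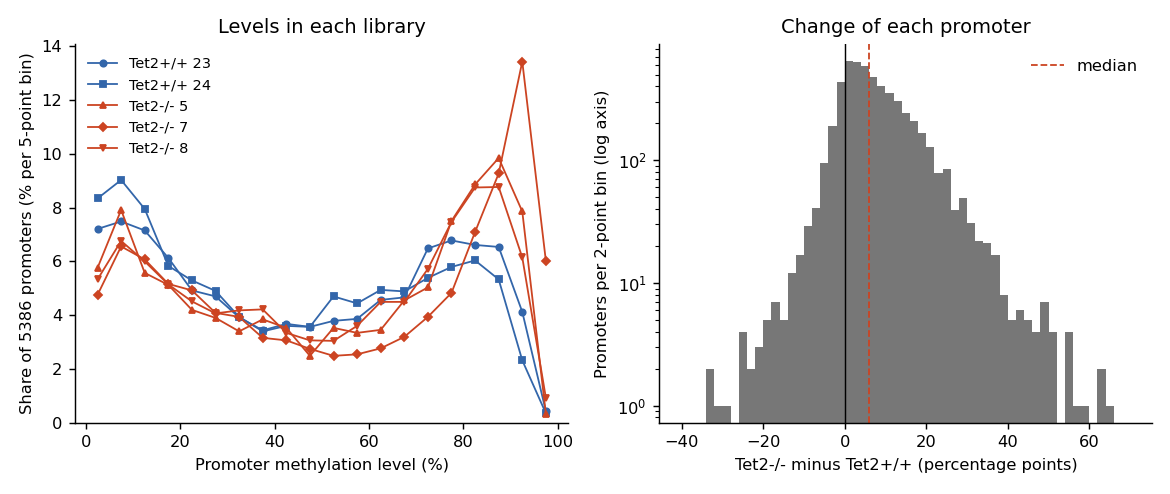
Left, share of the 5386 promoters in each 5-point bin of methylation level (%), with a line for each library (blue, Tet2+/+; red, Tet2-/-). Right, number of promoters by the difference of group means, Tet2-/- minus Tet2+/+, in percentage points on a logarithmic count axis, with the median of 5.94 dashed. Levels span the whole scale, the red lines lie above the blue ones over 80%, and the differences lean to the right of 0.

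At most single promoters the level was higher without TET2. The median difference was 5.94 points, against 2.22 points over all 19455 promoters tested. A positive difference was found in 84.3% of the 5386, against 76.7% of all tested and 82.1% of the CpG-poor promoters. In 2338 (43.4%) all Tet2-/- libraries were above both Tet2+/+ libraries, where the background was 32.8% of all promoters tested. In 127 (2.36%) all were below, where the background was 4.05%. Differences of over 20 points were gains in 519 promoters and losses in 13. Over all 19455 tested they were gains in 911 and losses in 29, and among the 2469 CpG-poor promoters gains in 222 and losses in 4.

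These differences were set against those between libraries of a genotype. The Tet2+/+ libraries differed by over 20 points at 4.94% of the promoters, and pairs of Tet2-/- libraries at 3.42% to 5.79%. Pairs across genotypes differed by as much at 6.78% (23 and 5) to 23.4% (24 and 7) of the promoters. The lowest share across genotypes was thus only slightly above the highest within one. Tet2+/+ library 24 was the lower of the pair in most of its large differences, with 222 promoters over 20 points below library 23 and 44 above it.

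With edgeR's quasi-likelihood test and Benjamini-Hochberg adjustment over all 19455 promoters, 103 of the 5386 promoters (1.91%) were higher in Tet2-/- at an adjusted p of at most 0.05. The background was 1.06%. A single one, Tmem223, was lower, against a background of 0.0154%. These 103 were 50% of all 206 promoters called higher, with 9 among the CpG-poor promoters, 92 among the CpG-rich and the rest on the X chromosome. Levels of the 103 ran from a median of 34.3% in Tet2+/+ to 77.9% in Tet2-/-, with gains of 4.73 to 65.8 points. Depth differed between the classes, and CpG-poor promoters had a median of 43 to 73 calls per library against 331 to 661 for CpG-rich promoters. A gain of 25 points was not called for any of 200 promoters in simulated data, and one of 45 points for 192 of 200. There the other promoters had no shift between genotypes, and the spread between libraries had a single fixed setting. These shares therefore do not give the power of the test on the real libraries, where gains down to 4.73 points were called.

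The number of calls depended on the libraries used. Without library 24, edgeR called 0 of the promoters in either direction, with 554 at an unadjusted p under 0.05, and limma also called 0, with 610. Without library 23, edgeR called 5 higher and limma 0. All 103 kept a positive difference in each of these fits, with a median gain of 33.5 points without library 24 and 40.2 without library 23. After each library's median promoter was subtracted, limma called 5 higher and 1 lower. That subtraction moved every promoter down by 0.45 on the log2 scale of methylated to unmethylated calls, which left medians of 0.15 for the 5386 promoters and -0.07 for all promoters tested.

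The level was lower in promoters with more CpGs, and so was the gain. Promoters with 20 to 29 dyads (1865) had 57.6% ± 2.81 in Tet2+/+ and 66.2% ± 3.57 in Tet2-/-, or 8.64 points more. Those with 30 to 39 dyads (1329) gained 7.66 points, those with 40 to 49 (1021) 6.40 and those with 50 to 59 (1171) 4.71, where the level was 22.0% ± 2.71 in Tet2+/+ and 26.7% ± 0.594 in Tet2-/-. In each of these 4 groups all Tet2-/- libraries were above both Tet2+/+ libraries. Relative to the Tet2+/+ level the gain did not fall in this way. From the lowest to the highest CpG number it was 14.99%, 14.8%, 17.6% and 21.4% of that level. Relative to the share unmethylated in Tet2+/+ it did fall, with 20.4%, 15.9%, 10.1% and 6.04% in the same order. At the limits of the set, the gain was 7.87 points with 19 dyads and 9.59 with 20, and 4.45 points with 59 dyads and 4.82 with 60.

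Intermediate promoters gained more points than CpG-rich promoters, and their gain overlapped with that of CpG-poor promoters. CpG-poor promoters went from 61.3% ± 3.41 to 69.1% ± 3.98, a gain of 7.85 points. The gain of the intermediate promoters minus that of the CpG-poor ones was -1.57 points, and the libraries of the genotypes overlapped in this difference (exact permutation p = 0.5). With each promoter weighted equally, the difference was 0.025 points in the opposite direction. CpG-rich promoters gained 2.02 points, from 8.50% to 10.5%, so that intermediate promoters gained 4.27 points more. This excess was 2.71 points without library 24 and 5.82 points without library 23. Relative to the Tet2+/+ level, the gain was 23.8% in CpG-rich and 15.6% in intermediate promoters. Relative to the share unmethylated in Tet2+/+, the order was the opposite, with 2.21% in CpG-rich, 10.5% in intermediate and 20.3% in CpG-poor promoters. In the difference in points each Tet2-/- library was above both Tet2+/+ libraries (exact permutation p = 0.2).

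**Figure D2:**
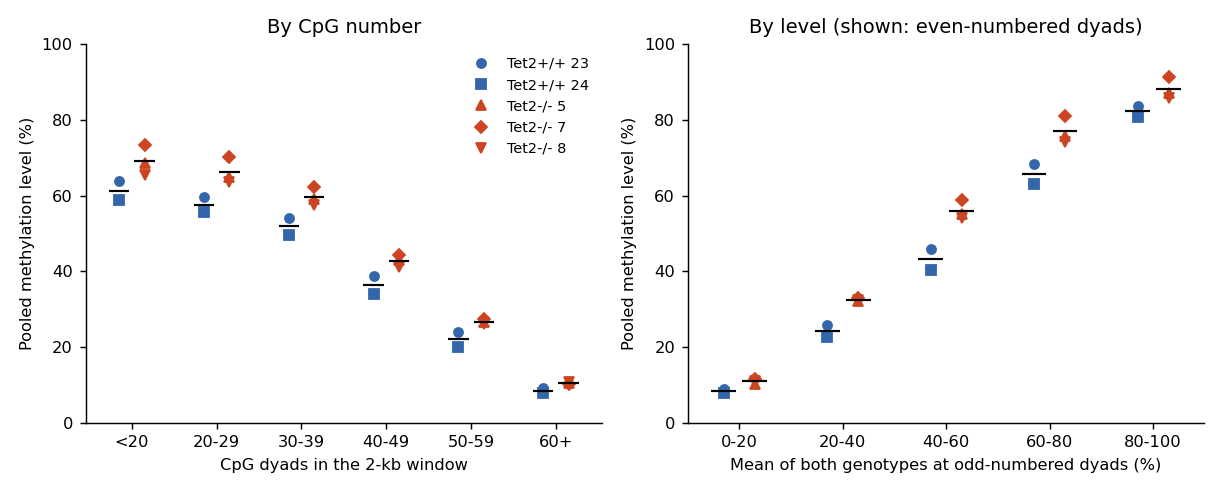
Pooled methylation level (%) in each library, with black lines for group means (Tet2+/+, n = 2; Tet2-/-, n = 3). Left, promoters by the number of CpG dyads in the window, where <20 is CpG-poor and 60+ CpG-rich; right, intermediate promoters by the mean level of both genotypes at odd-numbered dyads, with the level shown taken from even-numbered dyads. The gap between genotypes narrows with CpG number from 20 dyads on, and is widest in the bin of 40 to 60%.

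The gain was largest at promoters of middle levels. To keep counting error in the choice of promoters apart from the measured change, promoters were binned by the level of every other dyad, as the mean of both genotypes. The change was read from the remaining dyads. The bins are not independent of the change itself. With a mean of both genotypes on a scale that ends at 0 and 100%, a promoter with a large gain falls towards the middle bins. The end bins leave little room for one, so the pattern is in part set by the binning. Reads can cover dyads of both kinds. The change was 2.60 points in the 1348 promoters at 0 to 20% and 8.23 in the 940 at 20 to 40%. It was 12.9 points in the 742 at 40 to 60% and 11.3 in the 1267 at 60 to 80%. At 80 to 100% (1089 promoters) it was 5.79 points. All Tet2-/- libraries were above both Tet2+/+ libraries in every bin. Of the 103 promoters called higher, 31 had a Tet2+/+ level under 20% and 68 one of 20 to 60%, and 73 had a Tet2-/- level over 60%.

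Across the window, methylation had a dip at the start site in both genotypes. The level was lowest in the 100 bp before the start site, at 26.0% ± 2.08 in Tet2+/+ and 31.1% ± 1.54 in Tet2-/-. From 900 to 1000 bp upstream it was 61.3% ± 2.14 and 70.03% ± 3.52. Beyond 100 bp the upstream side was more methylated than the downstream side at a like distance, while the first 100 bp downstream, at 28.1% and 32.8%, were above the last 100 bp upstream. The level was 49.2% ± 3.19 and 56.6% ± 1.82 from 900 to 1000 bp downstream. The gain was largest from 700 to 600 bp upstream (9.31 points) and smallest from 100 to 200 bp downstream (4.26 points). In each of the 20 bins all Tet2-/- libraries were above both Tet2+/+ libraries.

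Within 250 bp of the start site the level was 29.8% ± 2.71 in Tet2+/+ and 34.8% ± 1.46 in Tet2-/-, and in the flanks, 500 to 1000 bp away, 51.1% ± 3.23 and 59.3% ± 2.62. The flanks therefore gained 3.19 points more than the core. The flank minus core difference was 21.7 and 21.0 points in Tet2+/+ and 23.3, 26.2 and 24.1 points in Tet2-/-, with no overlap (exact permutation p = 0.1). With each promoter weighted equally the difference of gains was 1.23 points and the separation was lost (exact permutation p = 0.4).

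**Figure D3:**
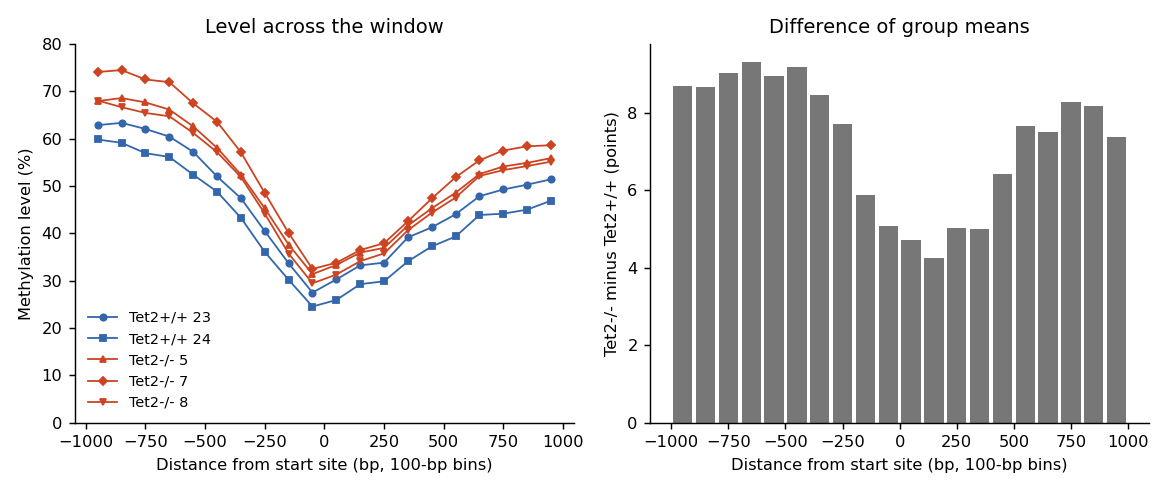
Left, methylation level (%) of the 5386 promoters in 100-bp bins by distance from the start site (negative, upstream), with a line for each library. Right, difference of group means, Tet2-/- minus Tet2+/+, in percentage points for the same bins. The dip lies just upstream of the start site, and the difference is smallest around and just after it.

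Promoters inside other genes were more methylated than the rest. The start site of 704 promoters (13.1%) lay inside another protein-coding gene, and these stood at 48.1% ± 3.36 against 39.2% ± 3.06 in Tet2+/+. Their gain was 6.26 points against 6.30 in the other 4682. The difference of gains was -0.035 points (exact permutation p = 1.0) and changed sign with several settings. With each promoter weighted equally it was -0.88 points (exact permutation p = 0.1). Of the 704, 252 lay in an exon of the other gene and gained 4.99 points, and 452 lay in introns and gained 7.12. The 298 promoters with another start site within 1 kb stood at 25.6% ± 2.73 in Tet2+/+ and gained 3.43 points, against 6.51 in the rest. Promoters whose window was over 25% soft-masked as repeats (1155) gained 4.30 points, and those at up to 25% (4228) gained 6.83.

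In sequence, the intermediate promoters lay between the other classes. Median GC content was 48.9%, against 43.5% in CpG-poor and 55.5% in CpG-rich promoters, and the ratio of observed to expected CpG was 0.30, against 0.14 and 0.66. The 103 promoters called higher had medians of 49.6% and 0.30. Short motifs were counted on both strands from 250 bp upstream to 50 bp downstream of the start site. TATAAA, the TATA box, was present in 13.7% of the intermediate promoters and 10.7% of all promoters. GGGCGG, a GC box of SP-family factors, was in 27.2% and 48.1%, and CCGGAA, a core of ETS-family sites, in 13.4% and 19.5%. TTGCNNAA, a form of the CEBP site, was in 12.05% and 9.82%, and AGATAA, a form of the GATA site, in 11.9% and 8.99%. The E-box CACGTG was in 6.59% and 8.48%. GAGGAA, which resembles the PU.1 site, was in 31.2% and 27.7%.

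Levels and gains also varied with motif content. Promoters with CCGGAA had 25.1% in Tet2+/+ and those without it 43.1%, and they gained 4.48 and 6.70 points. Promoters with GGGCGG had 29.8% and those without it 44.9%, with gains of 5.92 and 6.66 points. Promoters with TTGCNNAA gained 7.13 points and those without it 6.18, and with AGATAA the gains were 6.77 and 6.23 points. With and without GAGGAA they were 5.87 and 6.48 points, with and without TATAAA 6.99 and 6.20, and with and without CACGTG 6.37 and 6.28. These values are descriptions, and motif content varies with CpG number.

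The 12 promoters with the largest called gains belonged to genes of varied function. Their gains were 50.6 to 65.8 points, and by the rule of choice their groups do not overlap. Adjusted p by edgeR was 0.00207 to 0.0493. None passed without library 24 (adjusted p 0.109 to 0.523), and 3 passed without library 23. Their gains then were 42.2 to 66.2 points and 46.4 to 71.0 points, respectively.

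**Figure D4:**
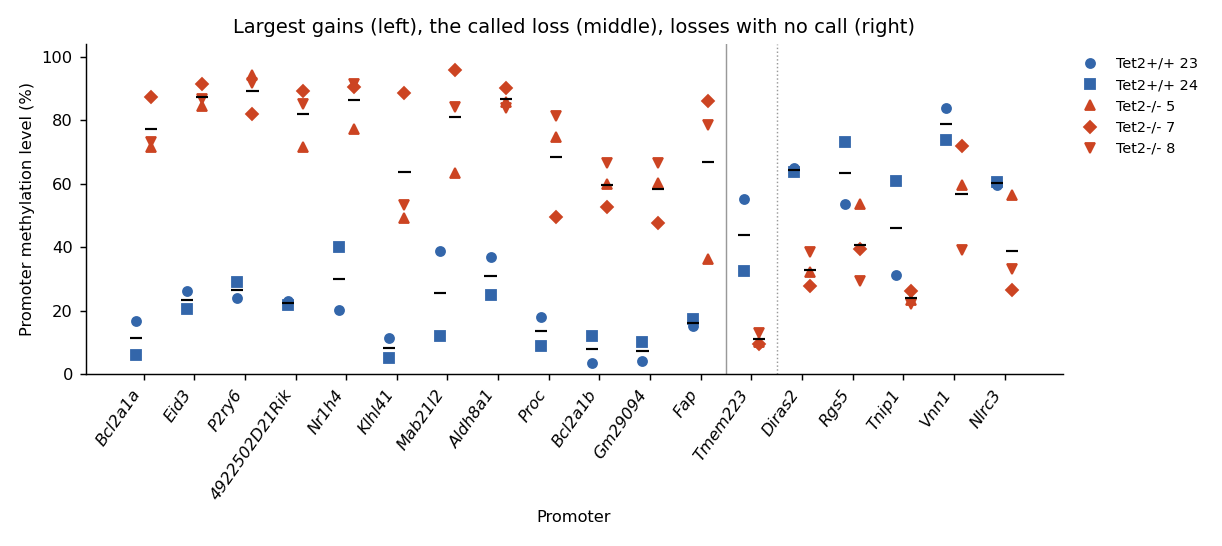
Methylation level (%) of named promoters in each library, with black lines for group means (Tet2+/+, n = 2; Tet2-/-, n = 3). Left of the solid line are the 12 largest called gains, between the lines Tmem223, and right of the dotted line 5 losses that were not called. Red points lie above blue points on the left and below them on the right, where the nearest points of Rgs5 almost touch.

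Eid3 (chr10:82865626-82867626, 47 dyads) had the smallest adjusted p. Its levels were 26.3% and 20.7% in Tet2+/+ and 84.4%, 91.4% and 86.6% in Tet2-/-, a gain of 64.0 points (adjusted p = 0.00207, edgeR). P2ry6 (chr7:100973649-100975649, 55 dyads) had 23.9% and 29.2% in Tet2+/+ and 94.2%, 82.0% and 91.7% in Tet2-/- (adjusted p = 0.00234, edgeR). Within 250 bp of its start site it went from 8.28% to 88.1%, and in its flanks from 53.7% to 93.1%. In points the gain of P2ry6 was thus larger near the start site (79.8) than in the flanks (39.4). The flanks started higher, and both parts were mostly methylated in Tet2-/-. 4922502D21Rik (chr6:129330796-129332796, 23 dyads) had 23.1% and 21.8% in Tet2+/+ and 71.4%, 89.3% and 85.1% in Tet2-/- (adjusted p = 0.0074, edgeR).

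Nr1h4 encodes the bile acid receptor FXR. Its promoter had 20.2% and 40% in Tet2+/+ and 77.4%, 90.4% and 91.3% in Tet2-/-. Klhl41, a kelch protein of striated muscle, had 11.3% and 5.04% in Tet2+/+ and 49.2%, 88.5% and 53.5% in Tet2-/-. Its core went from 6.55% to 87.1%, and its flanks from 7.65% to 45.3%, so that here too the gain was larger at the start site. In Aldh8a1, an aldehyde dehydrogenase gene, the core was methylated in both genotypes (83.7% and 89.4%) and the flanks went from 19.6% to 89.1%. Mab21l2, a developmental gene that lies within Lrba, had 38.9% and 12.2% in Tet2+/+ and 63.2%, 95.7% and 84.3% in Tet2-/-. Mab21l2 did not pass without library 7 (adjusted p = 0.081, edgeR) or library 8 (adjusted p = 0.093, edgeR), nor with limma (adjusted p = 0.068). Without library 5 it passed (adjusted p = 0.011, edgeR).

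Proc, the gene of the anticoagulant protein C, had 18.1% and 8.98% in Tet2+/+ and 74.7%, 49.7% and 81.4% in Tet2-/-. Fap, a gene of a cell-surface serine protease, had 15.3% and 17.4% in Tet2+/+ and 36.3%, 86.0% and 78.4% in Tet2-/-. Here library 5 was far below libraries 7 and 8. Fap did not pass without library 7 (adjusted p = 0.105, edgeR) or library 8 (adjusted p = 0.118, edgeR), nor with limma (adjusted p = 0.082). Without library 5 it passed (adjusted p = 0.0042, edgeR). Bcl2a1a and Bcl2a1b are near-identical copies of a gene of the anti-apoptotic BCL2 family, and Gm29094 overlaps Bcl2a1b, so that reads could not always be assigned to one of them. Bcl2a1a had 16.7% and 6.25% in Tet2+/+ and 71.4%, 87.2% and 73.2% in Tet2-/-, on 32 to 56 calls. Bcl2a1b had 3.70% and 12.1% in Tet2+/+ and 60%, 52.6% and 66.7% in Tet2-/-. Gm29094, which shares most of that window, gained 50.9 points.

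Losses were few. Tmem223, which encodes a transmembrane protein of mitochondria, had 55.3% and 32.7% in Tet2+/+ and 10.3%, 9.68% and 13.02% in Tet2-/-, a difference of -33.0 points (adjusted p = 0.0196, edgeR). The SD of its Tet2+/+ libraries was 16.0 points, and the difference was -44.3 points without library 24 (adjusted p = 0.109) and -21.7 without library 23 (adjusted p = 0.115). Diras2, a Ras-family GTPase gene, had 65.0% and 63.8% in Tet2+/+ and 32.2%, 27.9% and 38.5% in Tet2-/-, and did not pass (adjusted p = 0.0528, edgeR). In Diras2 the flanks differed by -38.3 points and the core by -9.18 points. Among promoters with at least 50 calls in every library, the next largest losses without overlap were those of Rgs5, Tnip1, Vnn1 and Nlrc3, at -21.4 to -22.6 points, and none of them passed. Tnip1, which encodes a protein that restrains NF-kappaB signalling, had 31.2% and 60.7% in Tet2+/+ and 23.6%, 26.4% and 22.1% in Tet2-/-, and without library 24 its difference was -7.22 points. Rgs5 went from -22.6 to -13.0 points without library 24, and Vnn1 from -21.9 to -13.1 points without library 8.

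Gene lists were compared by their promoters of intermediate CpG content. Counts of called promoters stand beside 1.91% of the 5386 and 1.06% of all tested, and a count of 0 or 1 in lists of 15 to 39 promoters does not set a list apart. Lists of genes of the myeloid lineage had small median differences. Of 19 granule and effector genes, 0 were called, which is what shares of 1.91% and 1.06% give in so short a list, and the median difference was 3.92 points, and Mpo and Prtn3 were not among them. Elane, the neutrophil elastase gene, had 53.1% and 40.6% in Tet2+/+ and 33.3%, 53.4% and 46.9% in Tet2-/-, with full overlap. Among 26 genes of surface and adhesion proteins the median was 2.13 points and 0 were called. Among 15 blood transcription factors it was 2.14 points, with 1 called. After subtraction of library medians the median of these 3 lists was -0.01, -0.18 and -0.11 on the log2 scale, where that of all promoters tested was -0.07 and that of the 5386 was 0.15. These 3 lists also started low, with median Tet2+/+ levels of 24.4%, 18.8% and 9.11%. The lymphoid and other-tissue lists below had 49.2% and 61.5%. By mean level of both genotypes, the gain in the set was 2.60 points at 0 to 20% and 12.9 at 40 to 60%. Whether the lists differ in gain at equal levels was not tested.

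The called transcription factor was Cebpe, a granulocyte factor of the CEBP family. Its promoter had 2.92% and 2.43% in Tet2+/+ and 9.58%, 21.5% and 27.0% in Tet2-/- (adjusted p = 0.041, edgeR). Cebpe did not pass without library 7 (adjusted p = 0.095, edgeR) or library 8 (adjusted p = 0.093, edgeR), nor with limma (adjusted p = 0.061). It passed without library 5 (adjusted p = 0.015, edgeR) and with edgeR's likelihood ratio test (adjusted p = 0.0011). Irf4, a lymphoid and myeloid factor, had 28.5% and 15.9% in Tet2+/+ and 40.1%, 38.5% and 40.9% in Tet2-/-, and did not pass. Spi1, the gene of PU.1, had 3.39% and 11.9% in Tet2+/+ and 9.23%, 12.1% and 8.08% in Tet2-/-, with overlap.

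Of 23 innate sensing genes, 1 was called (set, 1.91%; all tested, 1.06%) and the median was 2.97 points, or -0.06 on the log2 scale after subtraction of library medians, close to the -0.07 of all promoters tested. The called gene was Ticam2, an adaptor of Toll-like receptor 4, with 1.51% and 1.72% in Tet2+/+ and 8.68%, 20.3% and 7.64% in Tet2-/- (adjusted p = 0.048, edgeR). Its difference was 10.6 points, and 6.55 without library 7 (adjusted p = 0.093). Tlr5, the flagellin receptor, had 11.8% and 13.4% in Tet2+/+ and 27.5%, 36.3% and 24.8% in Tet2-/-, and did not pass. Among 18 cytokine and chemokine receptor genes 0 were called, with a median of 6.21 points. Il2rb had the largest difference, 62.9% and 60.8% in Tet2+/+ against 79.9%, 83.8% and 85.6% in Tet2-/- (adjusted p = 0.0835, edgeR).

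Genes of other lineages were examined next. The sort removed lymphoid and erythroid cells. Among 27 lymphoid genes, the median was 10.3 points and 16 (59.3%) had all Tet2-/- libraries above both Tet2+/+ libraries, against 43.4% of the 5386 and 32.8% of all tested, but 0 were called. Their pooled level was 44.7% ± 1.56 in Tet2+/+ and 54.9% ± 3.54 in Tet2-/-. Klrg1, a lectin-like receptor of lymphocytes, had 64.0% and 56.9% in Tet2+/+ and 82.5%, 95.6% and 88.9% in Tet2-/- (adjusted p = 0.055, edgeR). Among 15 erythroid and megakaryocytic genes the median was 10.9 points and 1 was called, against 1.91% of the set and 1.06% of all tested. All Tet2-/- libraries were above both Tet2+/+ libraries in 7 (46.7%) of the 15, close to the 43.4% of the set and against 32.8% of all tested. They were below both in 2, where the shares were 2.36% of the set and 4.05% of all tested. Pooled levels were 39.2% ± 0.305 and 43.2% ± 0.776. The called gene was Hba-a1, an alpha-globin gene with a near-identical copy, and it had 20 to 36 calls per library. Whether other cells in the sort contributed to these levels was not tested.

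Among 39 genes that mark other tissues, the median was 11.4 points, 26 (66.7%) had all Tet2-/- libraries above both Tet2+/+ libraries, against the same 43.4% and 32.8%, and 1 was called, where 1.91% of the 5386 and 1.06% of all tested were. The median Tet2+/+ level of these 39 was 61.5%, and they were not compared with other lists at equal levels. Myl2, a cardiac myosin light chain gene, had 49.1% and 30.3% in Tet2+/+ and 68.6%, 79.3% and 62.5% in Tet2-/-, and did not pass.

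Germline genes had the highest levels at the start. Of 42 measured, 31 stood over 60% in Tet2+/+, and their pooled level went from 72.3% ± 4.26 to 81.6% ± 5.80. The median difference was 8.14 points and 3 of the 42 were called, where 1.91% of the set and 1.06% of all tested were. Nanos2, an RNA-binding regulator of male germ cells, had 55.2% and 38.3% in Tet2+/+ and 81.3%, 84.5% and 79.2% in Tet2-/-. Tdrd9, a helicase of the piRNA pathway, had 59.3% and 55.1% in Tet2+/+ and 92.8%, 93.2% and 87.5% in Tet2-/-. Zp3, an egg coat gene, had 50% and 50.7% in Tet2+/+ and 79.9%, 88.1% and 79.4% in Tet2-/-. With a Tet2-/- library left out, Nanos2 did not pass without library 5, 7 or 8. Zp3 passed without library 5 but not without library 7 or 8, and Tdrd9 passed in each of these fits. These called genes were thus partly methylated with TET2 present and mostly methylated without it. Hormad2, chosen after its values were seen, was the exception in size, at 92.7% and 82.4% in Tet2+/+ and 45.7%, 93.5% and 23.5% in Tet2-/-, where the Tet2-/- libraries disagreed among themselves. Of 16 imprinted genes 0 were called, with a median of 7.21 points. Ddc had 46.0% and 40.8% in Tet2+/+ and 65.9%, 78.1% and 72.7% in Tet2-/-, while Gpr1 had 70.7% and 63.3% in Tet2+/+ and 51.3%, 43.1% and 55.1% in Tet2-/-.

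Large families of genes, grouped by symbol, held different levels, and their calls stand beside the same shares of 1.91% and 1.06%. The 153 zinc finger promoters (Zfp) had 19.3% ± 2.56 in Tet2+/+ and 23.8% ± 0.522 in Tet2-/-, with 1 called. The 46 keratin promoters (Krt), of 52 tested, had 66.3% ± 5.71 and 76.4% ± 3.90, with 0 called. The 125 solute carrier promoters (Slc) had 41.5% ± 3.06 and 50.2% ± 2.38, with 4 called. Olfactory receptors (Olfr) were mostly CpG-poor, and the 37 in the set had 64.2% ± 4.89 and 75.3% ± 3.67.

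The study lists genes with lower or higher RNA in Tet2-deficient blasts, and 58 promoters of the set belonged to genes with lower RNA. Only membership in the list was used, and whether the RNA came from the mice sequenced here is not stated in the sources used. These 58 promoters had 30.1% and 28.2% in Tet2+/+ and 41.3%, 44.6% and 41.3% in Tet2-/-, a gain of 13.2 points. The other 5328 intermediate promoters gained 6.21 points. The level of the listed promoters minus that of the others was -12.57 and -10.02 points in the Tet2+/+ libraries and -5.14, -3.95 and -3.73 points in the Tet2-/- libraries, so that the gap was smaller in every Tet2-/- library. Of the 58, 11 (18.97%) were called higher and 0 lower, against 1.73% of the other promoters. The median difference was 11.3 points.

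**Figure D5:**
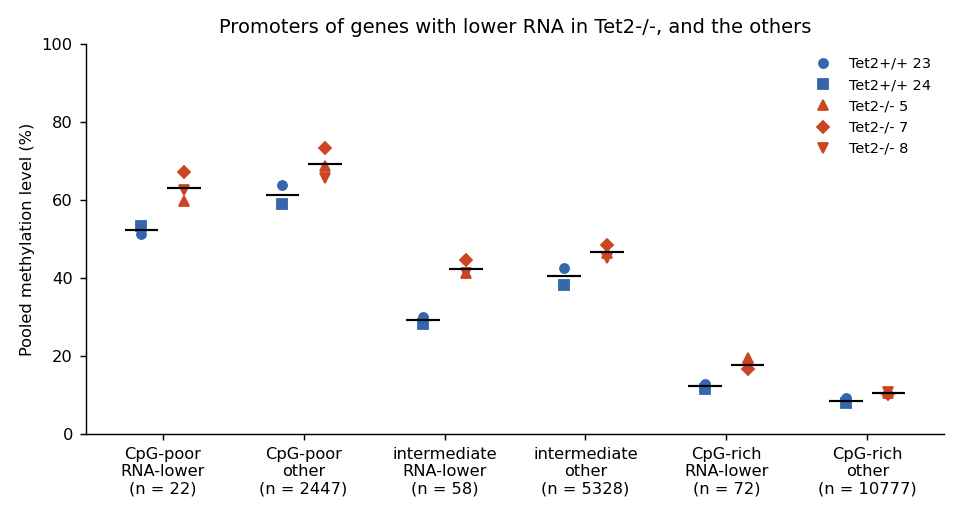
Pooled methylation level (%) in each library for promoters of genes with lower RNA in Tet2-/- blasts and for all other promoters, by CpG class, with black lines for group means (Tet2+/+, n = 2; Tet2-/-, n = 3). In the intermediate class the listed promoters start lower and gain more points than the others.

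The 11 called promoters of this list included Klhl41, Bcl2a1b and Gm29094, which share calls as said above. Tdrd9 was described above. Morc1, which silences transposons in spermatogenesis, had 56.0% and 30.6% in Tet2+/+ and 85.7%, 92.8% and 77.5% in Tet2-/-. Adam18, a sperm surface protein gene, had 46.6% and 57.2% in Tet2+/+ and 80.8%, 89.1% and 79.7% in Tet2-/-. Catsperd, of the sperm calcium channel, had 4.27% and 7.55% in Tet2+/+ and 24.5%, 24.3% and 48.3% in Tet2-/-. Ly6k had 19.4% and 8.21% in Tet2+/+ and 69.8%, 58.4% and 42.2% in Tet2-/-. Adgrl4, an adhesion receptor gene of endothelium, had 9.04% and 8.68% in Tet2+/+ and 48.1%, 40.2% and 54.4% in Tet2-/-. Slc44a4 had 42.8% and 47.5% in Tet2+/+ and 80.1%, 87.8% and 79.4% in Tet2-/-. Strc had 31.5% and 81.8% in Tet2+/+, on 54 and 33 calls, and 97.6%, 100% and 93.75% in Tet2-/-. The Tet2+/+ libraries of Strc were far apart, and its difference of 40.5 points was 15.3 without library 23 (adjusted p = 0.248) and 65.6 without library 24 (adjusted p = 0.109). The groups did not overlap in any of the 11, which holds for all 103 promoters called higher and does not set these apart. As in the set as a whole, these calls depended on the libraries used. With a Tet2-/- library left out, Strc did not pass without library 5, 7 or 8. Adam18 did not pass without library 7 or 8, Ly6k and Morc1 not without library 7, and Catsperd not without library 8. Klhl41, Bcl2a1b, Gm29094, Tdrd9, Adgrl4 and Slc44a4 passed in each of these fits, all of which kept both Tet2+/+ libraries. They therefore do not show how far these calls rest on library 23 or 24.

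In the other classes the listed promoters also had larger gains than the rest. Of 22 CpG-poor promoters on the list 1 (4.55%) was called, against 0.327% of the others, and the pooled gain was 10.96 against 7.82 points. Of 72 CpG-rich promoters 2 (2.78%) were called, against 0.835%, with gains of 5.59 and 1.999 points. Whether the excess differed between the classes was not tested. Promoters of genes with higher RNA are given by class. Of 15 in the set, 0 were called and 5 (33.3%) had all Tet2-/- libraries above both Tet2+/+ libraries, against 43.4% of the rest and 32.8% of all tested, while calls made up 1.91% of the set and 1.06% of all tested. Their median difference was 1.01 points against 5.96, and it was -0.35 on the log2 scale after subtraction of library medians, against -0.07 over all promoters tested. Their pooled level was 34.0% and 32.1% in Tet2+/+ and 34.3%, 41.5% and 33.8% in Tet2-/-. Hormad2, described above, is one of these 15. Of 34 CpG-rich promoters of such genes, 18 (52.9%) had all Tet2-/- libraries above both Tet2+/+ libraries, against 28.5% of the rest, with a median of 1.64 points against 0.948, and 0 were called. Of 5 CpG-poor promoters of such genes, 0 had all Tet2-/- libraries above both Tet2+/+ libraries, against 33.3% of the rest. Of these 5, 0 were called, and pooled gains were 4.63 points against 7.87 in the rest. The difference between the classes was not tested.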

How the data were processed

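Sorted blasts of 5 mice were studied by whole-genome bisulfite sequencing after random-primed library preparation. The authors trimmed reads with Trim Galore 0.4.3, aligned them to GRCm38 with Bismark 0.19.1 and Bowtie2, removed duplicates and deposited counts of methylated and unmethylated calls for each CpG cytosine, which are not normalized. Strands were summed per dyad, and all 21353092 dyads on the autosomes and X matched the GRCm38 reference. Depth was 63111735 to 110752967 calls per library.

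Groups follow the genotypes that the titles give, and no batch is named. The promoter test was that of edgeR 4.0.16 (glmQLFit, glmQLFTest; R 4.3.3), with methylated and unmethylated counts as columns, a coefficient per library and one for the genotype difference, adjusted by Benjamini-Hochberg over 19455 promoters at 0.05. Pooled levels were compared with exact two-sided permutation tests over 10 assignments. The tests were checked on simulated data, in which the other promoters had no shift between genotypes and the spread between libraries had a single fixed setting. The counts of recovered and false calls hold for that setting only. At a change of 25 points in 200 of 19455 simulated promoters the quasi-likelihood test recovered 0 with 0 false calls, and at 45 points 192 with 1 false call. Limma 3.58.1 was run on log2 of methylated over unmethylated calls, each with 2 added. Python 3.11.15 was used for the rest.

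Promoters were named by rule: the 12 largest gains and 8 largest losses among called promoters without overlap, 5 losses with at least 50 calls where fewer than 5 losses passed, and up to 4 per gene list. Elane, Spi1 and the genes named from the list of lower RNA beyond the first 4 were chosen after their values were seen. The set and the 10 gene lists were chosen with earlier results of these data known. Alternatives were other call minimums (10 and 50), other tests, subtraction of library medians, thinning, shared dyads, equal weights, shorter windows, and leaving out each library or the 5 Mb around Tet2. The values of 2 promoters that the rule would name are not reported here.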

Additional observations from a re-analysis of the deposited data

How the results depend on the processing

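The pooled gain of 6.29 points kept its direction under every alternative, from 4.10 without Tet2+/+ replicate 24 to 8.48 without Tet2+/+ replicate 23, with 6.94 for 30 to 49 dyads and 7.76 for windows of 500 bp on each side. The excess over CpG-rich promoters (2.71 to 5.82) and of flanks over core (1.23 to 3.82) also kept theirs. The difference from CpG-poor promoters was 0.025 with equal weights, and -2.56 to -0.365 with a library left out. The difference of intragenic from other promoters was 0.079 after thinning, -0.88 with equal weights and -0.25 to 0.177 with a library left out. The count of 103 higher promoters was 413 with the likelihood ratio test, 46 with limma, 5 with limma after subtraction of library medians and 46 with the shorter windows, and 0 to 129 with a library left out, which includes limma fits chosen after seeing the data. The count of 1 lower promoter was 5 with the likelihood ratio test, 0 with the shorter windows and 0 to 2 with a library left out. The likelihood ratio test made 69 false calls in the simulated data with changes of 25 points. The shorter windows also had other limits, 10 to 29 dyads, and of their 4200 promoters 1.095% were called. The causes of these changes were not tested. No paired analysis was possible because the genotypes share no library number. Thinning to the shallowest library left 88 higher, and what greater depth would call was not tested.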
